A study of Mus musculus with 19 samples.

Results

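The comparison of E14.5 with neonatal CMCs was resolved by gene function, using the 5-hmC peak lists of the 2 replicates at each point. A gene was included when it was protein-coding, autosomal and at least 5 kb long, which left 15498 of 21000 genes. Not included were 4523 autosomal genes under 5 kb and 979 genes on the sex chromosomes. For each gene and each list, the percent of the gene lying under peaks was computed, from its outermost transcription start to its outermost end. A gene was called higher in neonatal CMCs when both neonatal lists exceeded both E14.5 lists, lower in the opposite case, and overlapping otherwise. Differences are given in percentage points of gene length, neonatal minus E14.5. No peak touched 1595 of the genes in any of the 4 lists.

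5-hmC is made from 5-mC by the TET dioxygenases and is an intermediate in the removal of DNA methylation as well as a lasting mark of the gene body (GB) in differentiated cells. Around birth the mouse CMC leaves the cell cycle, builds larger myofibrils, shifts from glucose and lactate to fatty acids as its fuel and replaces fetal isoforms of contractile proteins with adult ones. The comparison therefore asks on which groups of genes GB 5-hmC differs across that step.

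All samples were from C57BL/6J mice. The methods give their sex as male. E14.5 CMCs came from ventricles of embryos and neonatal CMCs from ventricles of pups 1 or 2 days old. The ventricles were digested with collagenase, and cells that adhered early were discarded. Not all cells of such preparations carried sarcomeric actinin in the study's own staining, so a differing share of other cells and a differing amount of 5-hmC per cell cannot be told apart in these bulk DNA samples. DNA was sonicated and precipitated with an antibody against 5-hmC (hMeDIP), and peaks were called against input. The 2 replicates of each point were biological replicates by the methods. Peak lists of adult and TAC CMCs (1 week after transverse aortic constriction, a pressure overload) are used for side-by-side values only.

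The E14.5 lists held 132610 and 139706 peaks covering 89.5 and 95.7 Mb, and the neonatal lists 137172 and 153637 peaks covering 97.5 and 119 Mb. Neonatal replicate 2 was thus the largest list. Its header is also the only one of the 4 to state that the precipitated library, not the control, was scaled. The lists hold no read numbers and the study states only lower limits for them, so the depth of each list is not known here and no counting error can be given. Most counts of called genes below, and the mean coverage, are therefore followed by values after scaling each list to its total peak bp. Percentages of single genes, values along genes, peak densities and medians of the adult and TAC lists are as deposited.

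Examples of the sequence under the differing peaks are shown for genes on which the description turns, 3 from the neonatal side and a pair from the E14.5 side. Each is a window of 300 bp from the + strand of GRCm38 (mm10, RefSeq annotation 108). Every CpG, the place where 5-mC and 5-hmC mostly occur, is in capitals. The window is the one richest in CpGs among the stretches of the gene covered in both lists of that point and neither of the other. Untranslated exon sequence was left out. The *Cox4i1* window, chr8:120672535-120672834, includes part of a coding exon. The window in *Cpt1b*, chr15:89419826-89420125, spans parts of coding exons and the intron between them. That of *Ttn*, chr2:76736231-76736530, is wholly coding. All 3 lay wholly under peaks in both neonatal lists and outside peaks in both E14.5 lists.
Cox4i1: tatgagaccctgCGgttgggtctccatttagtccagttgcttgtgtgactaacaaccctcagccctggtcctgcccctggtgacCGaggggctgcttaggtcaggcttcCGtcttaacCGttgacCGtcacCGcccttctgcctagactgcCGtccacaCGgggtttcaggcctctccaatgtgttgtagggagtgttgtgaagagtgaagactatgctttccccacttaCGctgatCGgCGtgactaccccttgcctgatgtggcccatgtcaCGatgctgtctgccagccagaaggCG
Cpt1b: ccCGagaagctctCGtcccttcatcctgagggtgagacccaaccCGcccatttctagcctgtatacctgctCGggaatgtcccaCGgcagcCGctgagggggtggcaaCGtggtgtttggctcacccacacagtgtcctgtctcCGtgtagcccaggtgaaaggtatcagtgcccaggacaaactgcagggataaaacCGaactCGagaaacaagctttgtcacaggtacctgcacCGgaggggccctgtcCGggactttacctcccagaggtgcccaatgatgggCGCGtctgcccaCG
Ttn: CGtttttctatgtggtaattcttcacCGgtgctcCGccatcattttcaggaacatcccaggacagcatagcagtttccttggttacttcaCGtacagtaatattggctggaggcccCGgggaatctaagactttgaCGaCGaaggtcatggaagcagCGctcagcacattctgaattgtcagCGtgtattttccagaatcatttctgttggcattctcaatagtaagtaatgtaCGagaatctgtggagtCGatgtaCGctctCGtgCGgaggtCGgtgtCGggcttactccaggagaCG

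The windows of *Hmga2*, chr10:120414652-120414951, and *Tnni1*, chr1:135802853-135803152, are intronic. Both lay wholly under peaks in the E14.5 lists and outside peaks in the neonatal lists. They hold 21 and 8 CpGs, against 13, 15 and 17 in the *Cox4i1*, *Cpt1b* and *Ttn* windows.
Hmga2: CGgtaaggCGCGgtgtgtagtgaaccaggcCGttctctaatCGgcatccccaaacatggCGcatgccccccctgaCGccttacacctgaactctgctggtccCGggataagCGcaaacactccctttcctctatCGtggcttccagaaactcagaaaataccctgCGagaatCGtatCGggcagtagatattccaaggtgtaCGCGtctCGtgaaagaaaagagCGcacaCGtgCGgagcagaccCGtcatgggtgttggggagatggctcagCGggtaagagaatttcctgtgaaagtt
Tnni1: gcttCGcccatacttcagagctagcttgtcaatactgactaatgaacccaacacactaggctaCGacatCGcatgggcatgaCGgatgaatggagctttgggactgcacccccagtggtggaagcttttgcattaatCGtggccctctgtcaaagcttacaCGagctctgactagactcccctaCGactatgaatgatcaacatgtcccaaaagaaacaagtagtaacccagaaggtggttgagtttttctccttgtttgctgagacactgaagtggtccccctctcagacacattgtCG

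Coverage of genes was higher in neonatal CMCs on average. Peaks covered 6.06% and 5.60% of the average gene in the E14.5 lists and 7.10% and 8.52% in the neonatal lists, or 5.83% ± 0.326 against 7.81% ± 1.005 (SD, n = 2). The difference of 1.98 points was larger than the gap between replicates at either point, but 2 lists against 2 cannot give an exact permutation p below 0.333, the value obtained (two-sided). After scaling to total peak bp the means were 6.33% ± 0.651 and 7.26% ± 0.0724, and the difference was 0.925 points.

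Of the 15498 genes, 3843 (24.8%) were higher and 943 (6.08%) were lower in neonatal CMCs, so that 30.9% did not overlap between the points, while 10712 overlapped. The difference had a median of 5.54 points in the higher genes and -2.89 points in the lower genes, against a median gap between replicates over all genes of 1.78 points at E14.5 and 2.11 points in neonatal CMCs. A difference of 10 points or more was seen in 949 higher and 43 lower genes, and one of 20 points or more in 201 and 2. Scaling to total peak bp moved the split to 2913 (18.8%) higher and 2169 (14.0%) lower, and scaling to the average coverage of the genes themselves gave 2223 (14.3%) and 2994 (19.3%). The proportion of higher genes among the called thus went from 80.3% to 57.3% and 42.6%. All 943 lower genes and 2913 of the higher genes kept their call after the first of these scalings, 926 higher genes became overlapping, and 4 became lower.

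One of the 2 groupings across the points gave calls almost as often and the other less often. With replicates 2 set against replicates 1, 28.4% of genes did not overlap (2884 higher, 1518 lower). With E14.5 replicate 1 and neonatal replicate 2 set against the other pair (the crossed division), 16.3% did not (1741 and 784). The division by developmental point was the largest of the 3, which is an exact one-sided permutation p of 0.333, the smallest possible. After scaling to total peak bp the 3 divisions separated 32.8%, 31.1% and 18.8% of genes. For this reason the values in each list are given for the genes named.

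**Figure D1:**
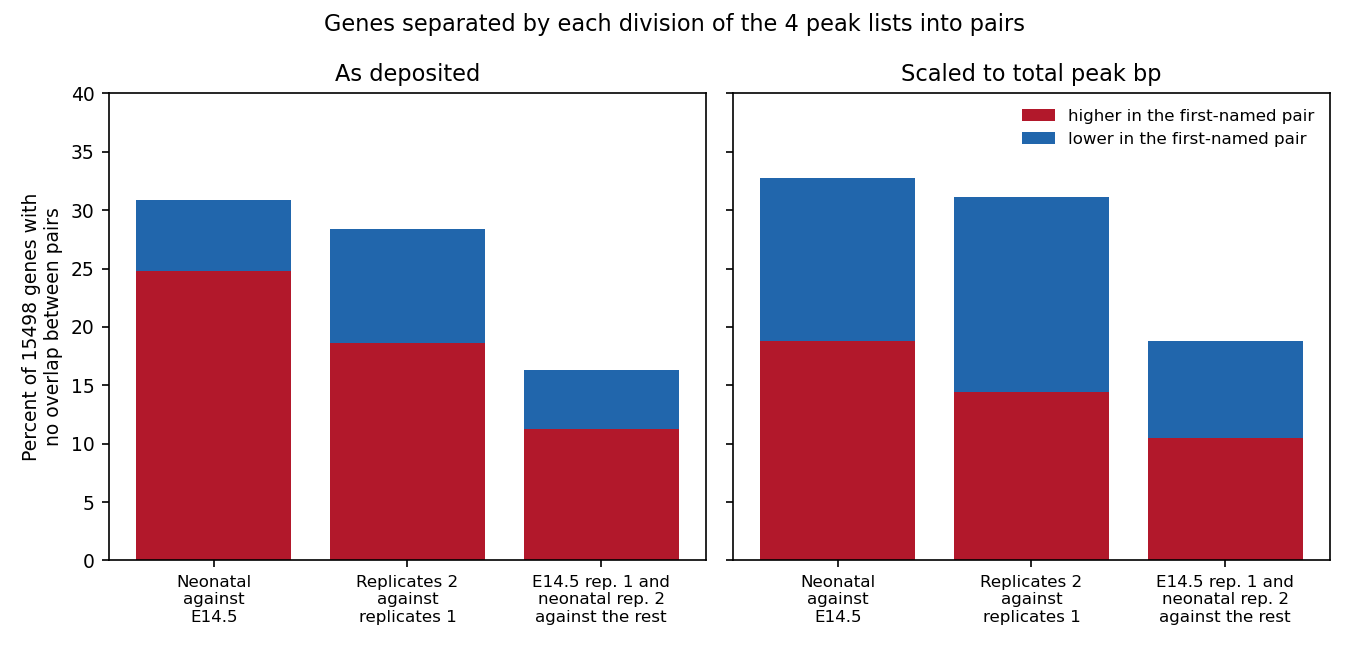
Percent of the 15498 genes whose values did not overlap between pairs of peak lists, for each of the 3 ways to divide the 4 lists into pairs, as deposited (left) and after scaling to total peak bp (right). Red marks genes higher in the first-named pair and blue genes lower. The division by point separated 30.9% of genes as deposited, and the division by replicate number 28.4%.

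A moderated test across genes (limma, log2 of percent + 1) on the 12884 genes with a mean coverage of at least 1% called none at an adjusted p under 0.05 (0.00% in each direction), with 1188 genes higher and 149 lower at an unadjusted p under 0.05. Without the filter on low values limma called 27 higher and 14 lower of 15498 genes (0.174% and 0.0903%). The median log2 difference over all tested genes was 0.26, and 0.08 after scaling. On simulated data with the spread of these replicates the test recovered no changed gene, so a count of 0 does not show that genes did not differ. No gene below passed the filtered test, and "higher" and "lower" refer to lists that did not overlap.

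Coverage differed inside the called genes more than around them. In the higher genes, the middle of the gene was covered to 7.87% and 6.80% at E14.5 and to 14.1% and 15.7% in neonatal CMCs, whereas the 20 kb upstream had 5.45% and 5.49% against 6.45% and 8.10%. In the lower genes, the middle went from 7.93% and 7.88% to 3.77% and 4.65%, and the 20 kb upstream had 4.64% and 5.08% against 4.71% and 6.07%. The middle of the gene takes part in the call, so its values describe the selected genes and test nothing. The flanks do not enter the percent.

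**Figure D2:**
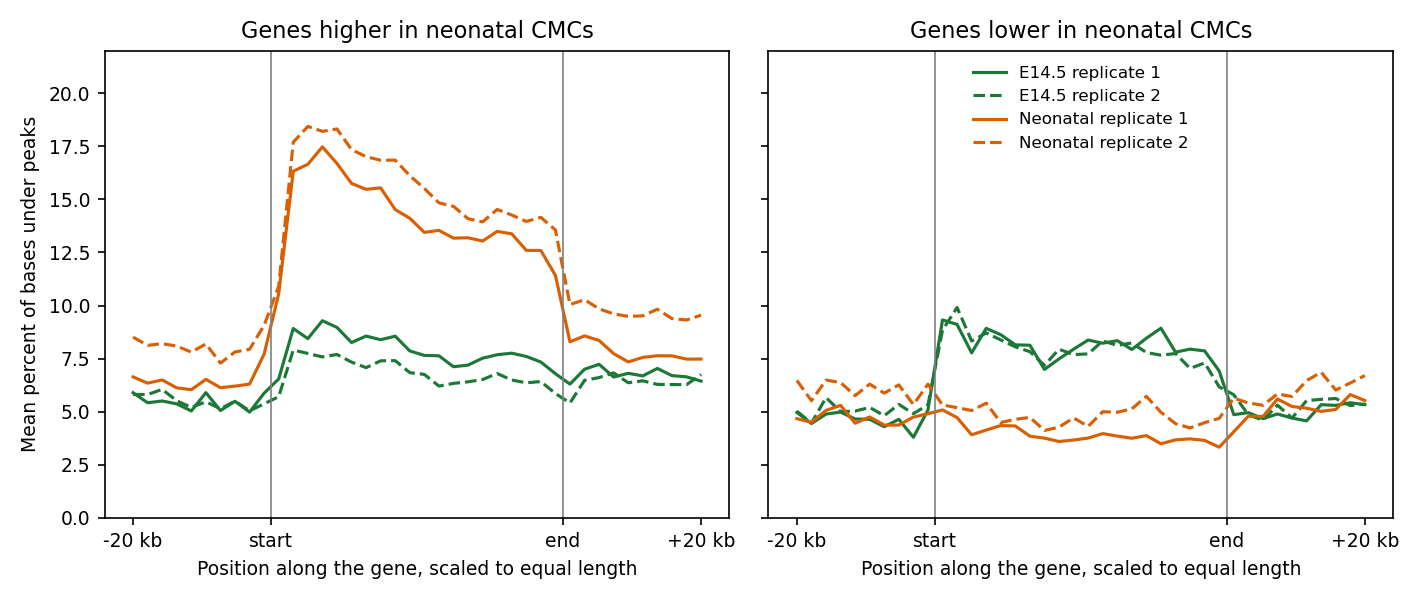
Mean percent of bases under peaks along genes scaled to equal length and in 20 kb on each side, for the 3843 genes higher (left) and the 943 genes lower (right) in neonatal CMCs, with 1 line for each peak list. Between start and end the neonatal lines run above the E14.5 lines on the left and below them on the right, and outside the genes the lines lie closer together.

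On the called genes the number of peaks differed, and on the higher genes their width as well. Both enter the percent used for the call, so these values describe the selected genes and test nothing. On the higher genes there were 9.76 and 8.93 peak centres per 100 kb at E14.5 and 13.1 and 13.3 in neonatal CMCs, with 767 and 752 bp against 870 and 965 bp of covered sequence per centre. On the lower genes the density was 7.23 and 7.22 against 4.75 and 5.17 centres per 100 kb. Their covered sequence per centre overlapped between the points, at 669 and 689 bp against 634 and 675 bp. Over all genes there were 7.35 and 7.20 centres per 100 kb at E14.5 and 7.88 and 8.62 in neonatal CMCs. The covered sequence per centre was then 720 and 719 bp against 775 and 853 bp. Inside genes, 12459 stretches of at least 200 bp were covered in both neonatal lists and in neither E14.5 list, and 4082 in both E14.5 lists and neither neonatal list. These counts are unscaled, with more sequence under peaks in the neonatal lists, and were not made for the other divisions of the lists. Of the neonatal stretches, 89.1% lay in introns, 8.90% in exons and 2.03% within 1 kb of a start site. For the E14.5 stretches these shares were 89.8%, 7.42% and 2.82%.

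Genes were next grouped into 27 hand-written lists of function or cell type, which together held 1836 different genes. In 24 lists more genes were higher than lower in neonatal CMCs, but this was so in 15 after scaling to total peak bp and in 13 after scaling to the average gene. Of all genes 24.8% were higher and 6.08% lower as deposited, and 18.8% and 14.0% after scaling to total peak bp. Their median difference was 0.516 points. It was 8.03 points for the tricarboxylic acid (TCA) cycle and respiratory chain, 6.92 for the sarcomere and Z-disc and 5.12 for fatty acid use. At the other end it was -0.0638 points for synaptic genes and 0 for Hox and other developmental homeobox genes, for liver, kidney and gut genes and for skeletal muscle genes. The intercalated disc and the cardiac transcription factors were the only lists without a lower gene as deposited. The division by replicate number separated more genes than the division by point in 8 of the 27 lists. The crossed division did so in 1, that of the liver, kidney and gut. Counts of these mixed divisions are given below, by replicate number first and crossed second where both are printed.

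**Figure D3:**
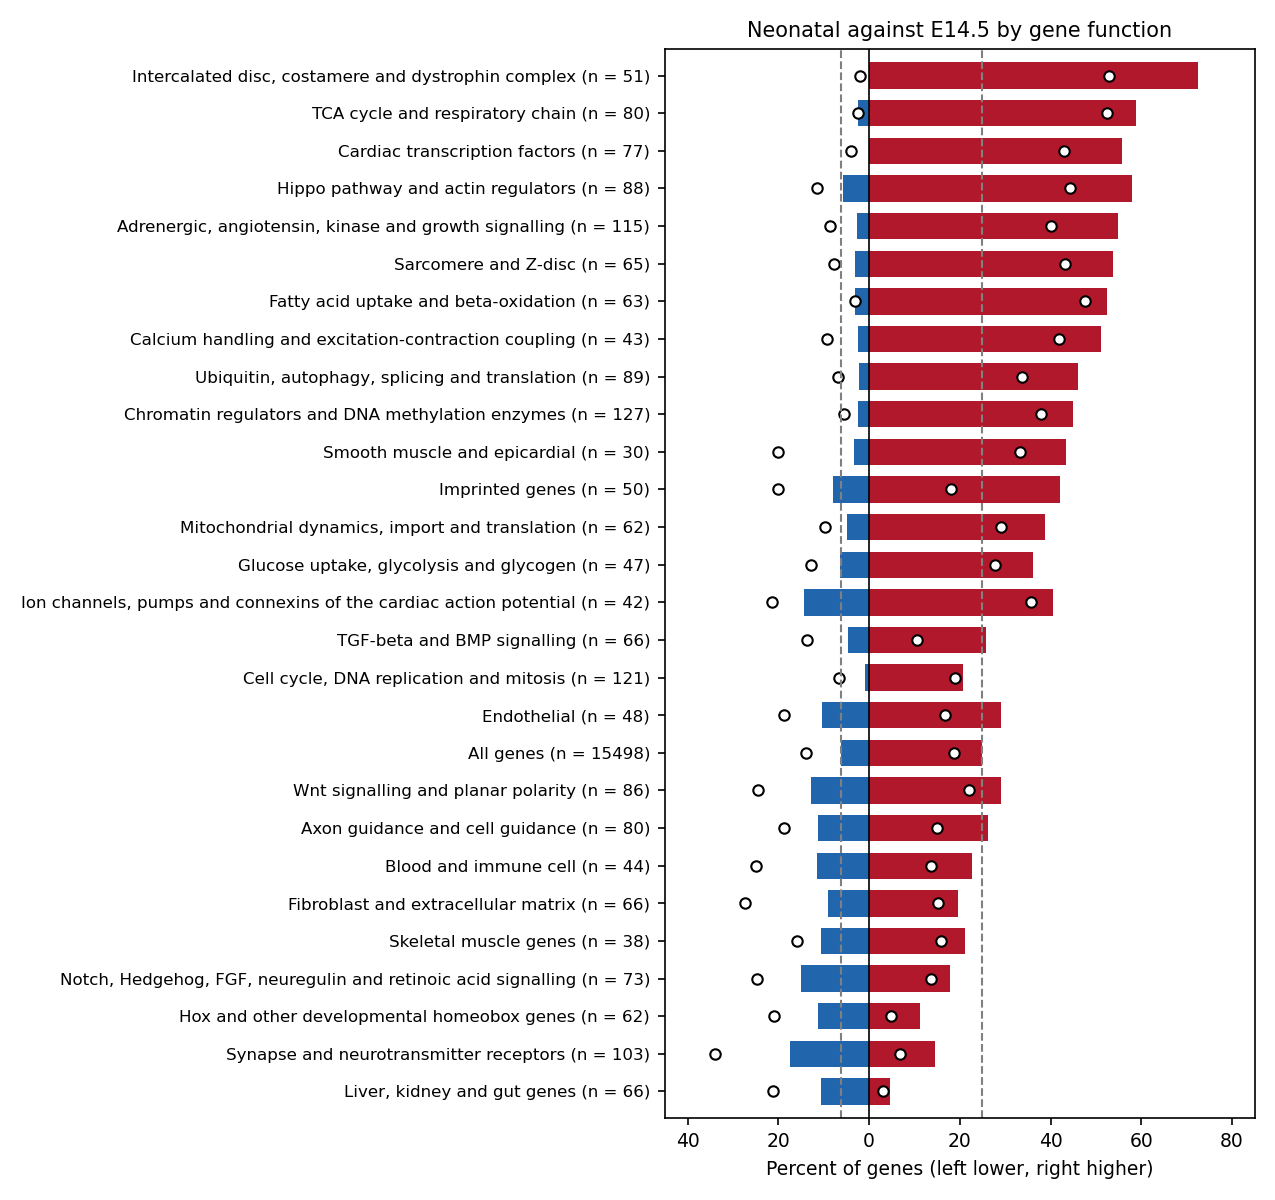
Percent of the genes of each functional list that were higher (red, right) or lower (blue, left) in neonatal than in E14.5 CMCs as deposited, with open circles for the same after scaling to total peak bp and dashed lines at the 24.8% and 6.08% of all genes. Heart muscle and metabolic lists reach up to 72.5% higher, and the synaptic list has the largest share lower, 17.5%.

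Genes of the TCA cycle and respiratory chain had the largest median difference. Of 80 genes 47 were higher (58.75%, all genes 24.8%) and 2 lower, against 42 and 2 after scaling. The other 2 divisions of the lists separated 15 and 3 of the 80. *Cox4i1*, a nuclear-encoded subunit of cytochrome c oxidase, was covered to 8.37% and 0% in the E14.5 lists and to 77.3% and 85.2% in the neonatal lists (4.19% ± 5.92 against 81.2% ± 5.59, SD, n = 2). Its difference of 77.04 points was the largest of all genes. The phosphate carrier gene *Slc25a3* had 6.78% and 0% of the gene at E14.5 and 52.00% and 41.05% in neonatal CMCs. For *Atp5j2*, which encodes a subunit of ATP synthase, the values were 23.6% and 16.3% against 68.3% and 54.4%, and for *Ndufb9* of complex I they were 19.8% and 17.5% against 51.8% and 62.9%. *Uqcrh* of complex III was listed at 0 in both E14.5 lists and at 35.8% and 26.9% in the neonatal lists. The ATP synthase gene *Atp5mpl* was likewise at 0 and then at 38.4% and 30.7%. These genes were chosen for their differences, so that the distance between the points describes them and tests nothing. The lower genes were *Me2* (9.05% and 7.103% against 3.25% and 5.65%), a mitochondrial malic enzyme, and *Ndufaf5* (5.79% and 5.59% against 3.67% and 4.75%), an assembly factor of complex I.

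Fatty acid genes were described by 63 members, of which 33 were higher (52.4%, all genes 24.8%) and 2 lower as deposited. After scaling these were 30 and 2, and the mixed divisions separated 11 and 12, against 35 by point. *Cpt1b*, the muscle enzyme that forms acylcarnitine for import into mitochondria, had 20.4% and 10.6% of the gene at E14.5 and 79.9% and 89.1% in neonatal CMCs, a difference of 69.03 points. In neonatal replicate 2 a single peak spanned most of the gene, and at E14.5 there were 3 and 2 separate peaks. *Pnpla2*, the adipose triglyceride lipase, had 36.1% and 9.02% at E14.5 and 60.9% and 64.7% in neonatal CMCs. The malonyl-CoA decarboxylase gene *Mlycd* had 6.84% and 12.1% and 41.6% and 46.3%, and the mitochondrial thioesterase gene *Acot2* 20.4% and 13.6% and 45.9% and 44.3%. With every peak set to the same width (the median peak width of each list) the differences of *Cpt1b*, *Pnpla2* and *Acot2* turned to -3.08, -4.51 and -4.16 points, since fewer and wider peaks then count for less. *Ppara*, the nuclear receptor that drives fatty acid oxidation genes, had 7.61% and 3.92% of the gene at E14.5 and 19.02% and 22.5% in neonatal CMCs, and its coactivator gene *Ppargc1b* 23.5% and 11.7% of the gene at E14.5 and 43.4% and 46.1% in neonatal CMCs. The lower genes were the acyl-CoA synthetase *Acsl6* (3.92% and 3.95% against 0% and 3.47%) and the fatty acid transporter *Slc27a6* (4.03% and 1.77% against 1.11% and 0.885%).

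Glucose genes stood nearer to the background, with 17 of 47 higher (36.2%, all genes 24.8%) and 3 lower, and 13 and 6 after scaling. Among them 10 and 13 were separated by the mixed divisions, against 20 by point. *Ldhb*, the heart form of lactate dehydrogenase, had 2.83% and 3.82% of the gene at E14.5 and 28.4% and 32.05% in neonatal CMCs. *Eno1*, a glycolytic enolase, had 25.1% and 5.41% and 36.6% and 38.98%, and *Ldha* had 29.6% and 24.99% and 31.00% and 49.5%, with lists of *Ldha* overlapping after scaling. *Slc2a3*, a glucose transporter of embryonic and neural cells, carried 3.35% and 3.35% at E14.5 and was listed at 0 in both neonatal lists, which is 1 peak of median width in each E14.5 list. Genes of mitochondrial dynamics, import and translation had 24 of 62 higher (38.7%) and 3 lower, and 18 and 6 after scaling. Mixed divisions separated 15 and 7 of the 62, against 27 by point. The import channel gene *Timm17a* was at 0 in both E14.5 lists and at 21.3% and 13.8% in the neonatal lists. *Bnip3*, a mitophagy receptor, went the other way with 5.37% and 2.68% and 0 in both neonatal lists.

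Sarcomere genes were higher in 35 of 65 cases (53.8%, all genes 24.8%) and lower in 2. These counts were 28 and 5 after scaling, and 24 and 10 after scaling to the average gene. The mixed divisions separated 14 and 9, against 37 by point. *Ttn*, which spans 279 kb and encodes the elastic filament titin, was covered to 14.2% and 5.75% at E14.5 and 43.1% and 42.4% in neonatal CMCs, or 9.96% ± 5.96 against 42.7% ± 0.486 (SD, n = 2). *Actn2*, the Z-disc alpha-actinin, had 16.9% and 17.8% against 30.9% and 31.9%. *Myl3*, the ventricular essential light chain, had 8.18% and 33.1% against 43.1% and 58.1%. With peaks of fixed width the *Myl3* difference was -8.18 points. *Xirp1*, an actin-binding protein of the intercalated disc, had 41.1% and 12.98% against 54.1% and 65.00%. *Myh7b* had 42.8% and 24.1% against 70.5% and 64.6%, but it shares bases with *Trpc4ap* and the peaks cannot be assigned to one of them.

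Contractile protein genes, among them isoforms that switch around birth, did not move as a block. *Tnni3*, *Myl7* and *Acta1* of the sarcomere list were not among the included genes, so their coverage was not examined. *Tnni1*, the slow skeletal troponin I expressed in the fetal heart, was among the genes with the largest lower values in neonatal CMCs, with 30.4% and 33.6% of the gene at E14.5 and 18.6% and 13.7% in neonatal CMCs and a difference of -15.8 points. *Myh7*, the myosin heavy chain of the fetal mouse ventricle, had 37.9% and 24.3% of the gene at E14.5 and 32.8% and 21.2% in neonatal CMCs. Its adult counterpart *Myh6* had 43.2% and 32.4% of the gene at E14.5 and 38.3% and 56.5% in neonatal CMCs. The lists of both myosin genes overlapped between the points, as did those of *Tnnt2*, cardiac troponin T (32.1% and 29.1% against 29.3% and 30.1%), which was lower after scaling. *Myl4*, the atrial light chain, had 16.9% and 19.2% against 9.82% and 20.5% and was also overlapping as deposited and lower after scaling. The other lower sarcomere gene was *Pdlim7*, with 34.2% and 29.5% against 24.9% and 27.3%.

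**Figure D4:**
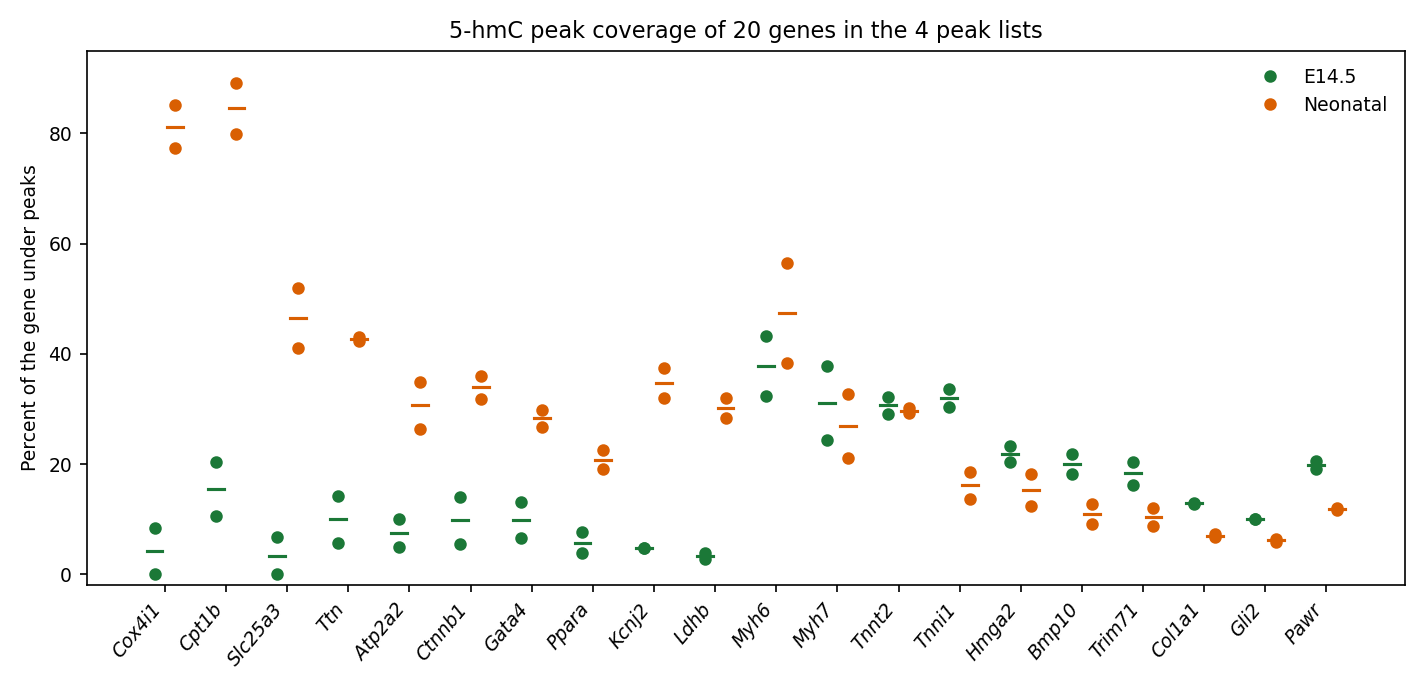
Percent of the gene under peaks for 20 genes, with 1 point for each of the 2 peak lists of a developmental point and a short line at their mean. The points lie apart from *Cox4i1* to *Ldhb*, with neonatal above E14.5, they overlap or meet for *Myh6*, *Myh7* and *Tnnt2*, and from *Tnni1* on the neonatal points lie below.

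Calcium handling genes were higher in 22 of 43 (51.2%, all genes 24.8%) and lower in 1, against 18 and 4 after scaling. Each of the mixed divisions separated 8 of them, against 23 by point. *Ryr2*, the calcium release channel of the sarcoplasmic reticulum, spans 554 kb and had 6.06% and 6.05% of the gene at E14.5 and 16.6% and 16.5% in neonatal CMCs, the replicates of each point differing by less than 1 point. *Atp2a2*, which encodes the SERCA2 calcium pump, had 9.997% and 4.97% of the gene at E14.5 and 34.9% and 26.4% in neonatal CMCs. Adult CMCs had 4.11% and 5.36% and TAC CMCs 2.72% and 3.07%, below or close to those at E14.5. *Casq1*, a calsequestrin, had 16.8% and 22.01% against 46.4% and 49.95%, and *Srl*, the calcium-binding sarcalumenin, 12.9% and 6.49% against 32.5% and 24.7%. The lower gene was *Cacna2d2*, an auxiliary calcium channel subunit, with 10.5% and 11.3% against 5.77% and 5.45%.

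Ion channels, pumps and connexins of the action potential were divided, with 17 of 42 higher and 6 lower, and 15 and 9 after scaling. The deposited shares were 40.5% and 14.3%, against 24.8% and 6.08% of all genes. Mixed divisions separated 11 and 8, against 23 by point. After scaling to the average gene 7 were higher and 10 lower. The balance was then the reverse, as it was over all genes (14.3% higher and 19.3% lower). *Kcnj2* and *Kcnj12*, which encode inward rectifier channels of the resting potential, had 4.699% and 4.699% against 37.5% and 31.9% and 13.5% and 22.7% against 29.9% and 34.3%. *Slc4a3*, an anion exchanger, had 20.01% and 40.5% against 71.5% and 70.1%.

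The intercalated disc, costamere and dystrophin complex had the largest share of higher genes, 37 of 51 (72.5%, all genes 24.8%) and none lower. These counts were 27 and 1 after scaling, and 20 and 5 after scaling to the average gene. The mixed divisions separated 8 and 5, against 37 by point. *Ctnnb1*, the beta-catenin of adherens junctions and Wnt signalling, had 14.02% and 5.54% of the gene at E14.5 and 35.9% and 31.9% in neonatal CMCs. *Ldb3*, a Z-disc protein, had 20.9% and 19.4% against 32.9% and 34.7%, and *Sspn*, a member of the dystrophin complex, 10.8% and 16.9% against 28.8% and 26.8%. *Pxn*, the focal adhesion adaptor paxillin, had 37.6% and 35.7% against 45.6% and 62.1%. Among regulators of actin and the Hippo pathway, 51 of 88 were higher (58.0%) and 5 lower, against 39 and 10 after scaling. Mixed divisions separated 17 and 14 of the 88, against 56 by point. *Arhgef2*, a guanine nucleotide exchange factor, had 18.5% and 21.8% against 48.9% and 44.8%, and *Rac1*, a small GTPase, 32.9% and 22.4% against 51.1% and 46.2%, with -0.432 points at fixed peak width. *Tiam1*, an exchange factor for *Rac1*, was lower with 18.7% and 13.1% against 8.56% and 11.4%, and so was *Wwc1* of the Hippo pathway (8.56% and 7.398% against 6.21% and 4.09%).

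Cardiac transcription factor genes were higher in 43 of 77 (55.8%, all genes 24.8%) and lower in none, against 33 and 3 after scaling. The mixed divisions separated 13 and 12, against 43 by point. *Gata4* had 13.04% and 6.51% of the gene at E14.5 and 29.8% and 26.8% in neonatal CMCs. *Gata6*, its relative, had 25.3% and 16.2% of the gene at E14.5 and 25.7% and 40.2% in neonatal CMCs, a gap of less than 1 point between its nearest lists, which overlapped after scaling. *Klf15*, a regulator of metabolism, had 6.97% and 3.74% against 31.4% and 25.4%, *Klf13* 11.6% and 11.8% against 27.9% and 41.7%, and the ventricular factor *Irx4* 12.5% and 5.49% against 38.9% and 21.5%. *Mef2a* and *Mef2c* were less covered throughout and had 6.72% and 5.198% against 11.6% and 11.4% and 6.27% and 4.33% against 8.27% and 9.33%. Chromatin regulators had 57 of 127 genes higher (44.9%) and 3 lower, against 48 and 7 after scaling. Mixed divisions separated 29 and 30 of the 127, against 60 by point. The histone methyltransferase genes *Setd1b* and *Kmt2d* had 6.797% and 13.8% against 32.7% and 30.6% and 13.4% and 9.45% against 25.03% and 35.00%, and *Arid1a*, a subunit of the BAF remodeller, 11.5% and 8.77% against 25.6% and 23.9%. Among the enzymes that make 5-hmC, *Tet1* was higher with 4.72% and 5.300% against 6.82% and 7.13%. *Tet2* had 7.26% and 5.79% against 7.56% and 10.9% and overlapped after scaling, and *Tet3* overlapped as deposited with 26.1% and 15.7% against 19.1% and 31.5%.

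Genes of adrenergic, angiotensin, kinase and growth signalling had 63 of 115 higher (54.8%, all genes 24.8%) and 3 lower, against 46 and 10 after scaling. The mixed divisions separated 30 and 15, against 66 by point. *Adcy6*, the main adenylyl cyclase of heart muscle together with *Adcy5*, had 48.4% and 44.3% against 72.2% and 73.8%, and with peaks of fixed width its difference was -3.39 points. *Gna13*, a G protein alpha subunit, had 18.2% and 16.6% against 36.7% and 45.4%. *Cish*, a feedback inhibitor of cytokine signalling, had 13.7% and 10.8% against 58.5% and 72.5%, and in the later lists stood at 8.18% and 0% in adult CMCs and at 0 in both TAC lists. Of the lower genes, *Gucy1a1*, a subunit of the nitric oxide receptor, had 12.8% and 7.83% against 6.96% and 3.05% and *Prkcb*, a protein kinase C, 6.44% and 8.05% against 5.48% and 5.61%. Genes of ubiquitin, autophagy, splicing and translation had 41 of 89 higher (46.1%) and 2 lower, against 30 and 6 after scaling. Mixed divisions separated 14 and 17 of the 89, against 43 by point. *Eef2*, the translation elongation factor, had 0% and 17.04% against 52.6% and 51.5%, and *Rbm20*, which controls the splicing of titin, 25.9% and 17.5% against 35.7% and 47.9%.

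Cell cycle, replication and mitosis genes had 25 of 121 higher, 20.7% against 24.8% of all genes, and 1 lower, and 15 of them lay under no peak in any of the 4 lists. After scaling 23 were higher and 8 lower. The 2 other divisions of the lists separated 34 and 18 of the 121 genes, against 26 for the division by point. *Cdk1*, the mitotic kinase, had 13.6% and 9.24% of the gene at E14.5 and 41.1% and 22.1% in neonatal CMCs. *E2f8*, a repressor of the E2F family, had 10.9% and 6.61% against 33.3% and 26.96%, and *Cdc6*, a replication licensing factor, 17.1% and 8.400% against 30.4% and 26.01%. *Gins2* had 6.41% and 10.6% against 27.2% and 32.9% but overlaps *Gse1*. The lower gene was *Racgap1*, needed for cytokinesis, with 9.78% and 8.91% against 6.25% and 8.56%.

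In the developmental signalling lists the balance of higher and lower genes turned with the scaling. Wnt and planar polarity genes had 25 of 86 higher and 11 lower, or 29.1% and 12.8% against 24.8% and 6.08% of all genes. After scaling 19 were higher and 21 lower, and the mixed divisions separated 23 and 21, against 36 by point. The ligand genes *Wnt6*, *Wnt10a* and *Wnt9b* were lower, with 26.5% and 17.2% against 8.01% and 12.6%, 12.4% and 9.83% against 0% and 8.89% and 14.4% and 9.604% against 3.93% and 8.47%. The receptor gene *Fzd4* (8.72% and 15.3% against 29.8% and 24.4%) and the kinase gene *Csnk1e* (20.4% and 28.4% against 42.5% and 44.7%) were higher. TGF-beta and BMP genes had 17 of 66 higher (25.8%) and 3 lower (4.55%), near the 24.8% and 6.08% of all genes. After scaling 7 were higher and 9 lower, and after scaling to the average gene 4 and 22. The division by replicate number separated 25 of the 66, against 20 by point. *Bmp10*, the ligand that keeps embryonic CMCs proliferating and trabeculae growing, had 21.9% and 18.2% of the gene at E14.5 and 12.8% and 9.08% in neonatal CMCs, and was listed at 0 in all 4 adult and TAC lists. The inhibitory *Smad7* (48.6% and 21.2% against 55.6% and 49.3%) and the receptor genes *Acvr1* (17.5% and 7.96% against 27.5% and 30.6%) and *Tgfbr3* (16.3% and 15.3% against 25.6% and 24.6%) were higher, though *Smad7* overlapped after scaling.

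Notch, Hedgehog, FGF, neuregulin and retinoic acid genes had 13 of 73 higher and 11 lower. These were 17.8% and 15.1%, against 24.8% and 6.08% of all genes. After scaling 10 genes were higher and 18 lower. The division by replicate number separated 28 of them, against 24 by point. *Gli2*, a transcription factor of the Hedgehog pathway, had 10.1% and 10.03% of the gene at E14.5 and 6.46% and 5.85% in neonatal CMCs. The receptors *Fgfr1* and *Fgfr2* were lower, with 17.3% and 21.2% against 15.1% and 16.2% and 9.43% and 8.73% against 7.03% and 5.01%, and so was *Aldh1a3*, an enzyme that makes retinoic acid, with 13.8% and 14.9% against 9.33% and 6.601%. The retinoic acid receptor gene *Rara*, by contrast, had 36.1% and 33.4% against 44.00% and 68.5%. Guidance genes had 21 of 80 higher and 9 lower, or 26.25% and 11.25% against 24.8% and 6.08% of all genes. After scaling 12 were higher and 15 lower, and 31 were separated by replicate number against 30 by point. *Efna1*, an ephrin, was at 0 in both E14.5 lists and at 34.2% and 24.3% in the neonatal lists, whereas *Efnb2* had 18.7% and 19.7% against 12.1% and 18.1% and the receptor gene *Ephb2* 13.8% and 20.1% against 9.395% and 13.7%. Hox and other homeobox genes had 7 of 62 higher and 7 lower (11.3% each), against 24.8% and 6.08% of all genes. After scaling 3 were higher and 13 lower, and 15 lay under no peak in any of the 4 lists. By replicate number 15 were separated, against 14 by point. *Hoxb3* carried 6.06% and 2.02% at E14.5 and 0 in both neonatal lists, and *Pax2*, a kidney and ear factor, had 8.67% and 8.71% against 5.63% and 6.73%.

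Of the genes best known from other tissues, 14.6% of the synaptic list, 4.55% of the liver, kidney and gut list and 21.1% of the skeletal muscle list were higher, against 24.8% of all genes, and the last is near that background. Synaptic and neurotransmitter receptor genes had 15 of 103 higher and 18 lower, against 7 and 35 after scaling and 2 and 51 after scaling to the average gene. The division by replicate number, however, separated 48 of these 103 genes, more than the 33 of the division by point. The glutamate receptor gene *Grik4* had 6.098% and 8.56% against 4.77% and 5.17% and *Grm2* 12.98% and 8.66% against 4.33% and 4.33%, and the scaffold gene *Dlg4* had 23.4% and 23.8% against 21.8% and 15.9%. Liver, kidney and gut genes had 3 of 66 higher and 7 lower, against 2 and 14 after scaling. The other 2 divisions separated 17 and 14 of the 66, more than the 10 by point. *G6pc*, the glucose-6-phosphatase of liver, had 4.92% and 4.92% at E14.5 and was listed at 0 in both neonatal lists. Skeletal muscle genes had 8 of 38 higher and 4 lower, and 6 and 6 after scaling, with 14 separated by replicate number against 12 by point. In that list *Ckm*, the muscle creatine kinase that heart also expresses, had 49.8% and 24.4% against 58.1% and 72.3%, with -9.55 points at fixed peak width, and *Ryr1*, the skeletal release channel, 11.4% and 14.7% against 8.67% and 10.8%.

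Markers of the other cell types of the heart were examined as whole lists. Higher genes made up 19.7% of the fibroblast, 29.2% of the endothelial and 22.7% of the blood list, against 24.8% of all genes. Lower genes made up 9.09%, 10.4% and 11.4%, against 6.08%. In the smooth muscle and epicardial list 43.3% were higher and 3.33% lower. Some of its genes also stand in the heart muscle lists, among them *Des*, *Lmod1*, *Mylk* and *Synpo2* of the sarcomere list. *Myocd*, *Tbx18* and *Heyl* are shared with the cardiac transcription factors. Its share of higher genes is therefore not one of smooth muscle and epicardial cells alone. Of 66 fibroblast and matrix genes 13 were higher and 6 lower, against 10 and 18 after scaling, each of the 3 divisions separated 19, and the average gene of the list was covered to 8.07% and 7.79% at E14.5 and 7.98% and 9.995% in neonatal CMCs. *Col1a1*, the main fibrillar collagen, was lower with 13.03% and 12.7% of the gene at E14.5 and 6.78% and 7.25% in neonatal CMCs, and *Twist2* had 9.15% and 12.6% against 4.803% and 3.504%. Of the other defining markers, *Col3a1* was at 0 in all 4 lists, *Col1a2* and *Postn* had at most a single peak of median width in a list, and *Dcn*, *Ddr2* and *Pdgfra* overlapped between the points. Endothelial genes had 14 of 48 higher and 5 lower, against 8 and 9 after scaling, with list means of 9.66% and 8.67% against 9.25% and 14.3%. The mixed divisions separated 16 and 9, against 19 by point. *Pecam1* was covered to 17.7% and 17.5% at E14.5 and 15.3% and 26.8% in neonatal CMCs and *Flt1* to 12.6% and 12.3% and 11.8% and 18.7%, both overlapping, while *Tie1* was lower with 12.2% and 13.01% against 0% and 8.32%. Blood and immune genes had 10 of 44 higher and 5 lower, against 6 and 11 after scaling, with means of 7.26% and 6.17% against 6.80% and 8.28%. Mixed divisions separated 13 and 10 of the 44, against 15 by point. *Ptprc*, the pan-leukocyte marker, had 2.88% and 1.62% against 0.891% and 1.34% and *Gfi1b*, an erythroid and platelet factor, 3.997% and 10.9% against 0 in both neonatal lists. Smooth muscle and epicardial genes had 13 of 30 higher and 1 lower, against 10 and 6 after scaling, with means of 10.5% and 9.10% against 12.7% and 13.6%. Mixed divisions separated 7 and 6 of the 30, against 14 by point. *Myh11*, their contractile myosin, had 5.02% and 5.18% against 5.27% and 5.53% and was higher as deposited and lower after scaling. The called genes named in this paragraph from the fibroblast, endothelial and blood lists were all lower ones, so they do not represent their lists. In each of these lists more genes were higher than lower as deposited (13 against 6, 14 against 5 and 10 against 5), though not after scaling. 5-hmC coverage of a marker is no measure of its RNA, and the part of other cells in the differences was not tested.

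Imprinted genes had 21 of 50 higher and 4 lower, against 9 and 10 after scaling. *Igf2*, the fetal growth factor expressed from the paternal allele, had 11.9% and 13.4% of the gene at E14.5 and 11.6% and 7.88% in neonatal CMCs, and *Peg3* had 6.17% and 4.096% against 2.67% and 0%. *Igf2r*, expressed from the maternal allele, had 21.96% and 19.4% against 22.4% and 34.7% and overlapped after scaling.

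Outside the lists, the rule for the largest differences named further genes. *Tob2*, an antiproliferative factor, had 4.98% and 4.98% against 53.6% and 58.8%, and *Bhlhe40*, a repressor of the circadian system, was at 0 in both E14.5 lists and at 44.6% and 54.98% in the neonatal lists. Among genes of at least 50 kb, *Rbpms*, an RNA-binding protein of heart and smooth muscle, had 42.02% and 32.4% of the gene at E14.5 and 58.4% and 70.6% in neonatal CMCs, but at fixed peak width its difference was -1.33 points. *Kcng2*, a modifier subunit of potassium channels, had 19.5% and 17.8% of the gene at E14.5 and 47.3% and 54.3% in neonatal CMCs. The lower genes of that length included *Hmga2*, an embryonic chromatin protein repressed by let-7, with 20.3% and 23.3% of the gene at E14.5 and 12.3% and 18.2% in neonatal CMCs, and *Trim71*, an RNA-binding ubiquitin ligase of embryonic cells that is also a let-7 target, with 20.4% and 16.3% of the gene at E14.5 and 8.69% and 12.1% in neonatal CMCs. In adult and TAC lists *Hmga2* stood at 3.59% and 5.61% and 4.302% and 2.31% and *Trim71* at 4.99% and 6.42% and 2.83% and 4.72%, below every E14.5 and neonatal list. *Pawr*, a proapoptotic factor, had 20.6% and 19.04% of the gene at E14.5 and 12.05% and 11.6% in neonatal CMCs. It then stood at 2.44% and 2.69% in adult CMCs and 3.303% and 2.59% after TAC, below the neonatal lists. *Glis1*, a zinc-finger factor, had 12.9% and 13.1% against 5.03% and 7.41%. Among short genes, *Slc22a7*, an organic anion transporter of liver and kidney, had 36.6% and 12.3% at E14.5 and 0 in both neonatal lists.

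The adult and TAC lists were not used to choose the genes. In the genes higher in neonatal CMCs the median coverage was 5.51% and 4.85% in the E14.5 lists and 10.7% and 11.6% in the neonatal lists. Adult CMCs had 9.81% and 12.1%, and TAC CMCs 9.31% and 5.29%. For the lower genes, with points in the same order, it was 6.43% and 6.36%, 2.79% and 3.62%, 2.42% and 3.83%, and 2.63% and 2.94%. Over all genes these medians were 3.73% and 3.63%, 4.20% and 5.10%, 3.86% and 5.24%, and 3.84% and 3.05%. By these medians the adult values stood near the neonatal ones in both sets. TAC replicate 2, the list with the least peak sequence, was lower in the first set. Overlapping genes had adult medians of 2.47% and 3.52%, close to those of the lower genes. By the mean, the lower genes had 8.16% and 7.95% at E14.5, 3.92% and 4.79% in neonatal CMCs and 4.37% and 6.65% in adult CMCs. Adult replicate 2 thus stood between the points by this measure.

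The called genes were longer than the rest, with a median length of 36.7 kb for the higher, 35.3 kb for the lower and 21.8 kb for the overlapping genes. The share of higher genes went from 14.3% in genes of 5 to 10 kb to 34.9% in genes of 100 kb or more, and that of lower genes from 3.48% to 9.74%. CpG density was close in the sets, with medians of 1.26, 1.20 and 1.16 CpG per 100 bp, all above the 0.851 of the autosomes as a whole. Of the 4786 called genes, 491 share bases with another of the genes, and 195 with one called the same way.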

How the data were processed

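hMeDIP peak lists of 4 samples (E14.5 and neonatal CMCs, 2 replicates each) were compared. Per the labels and the study's methods, the authors aligned reads to mm10 with BWA 0.7.4-r385, marked duplicates with Picard and called peaks per replicate with HOMER in histone mode against input. The deposited lists give peak positions and a score column that is 1 throughout, and no read counts. RefSeq genes of GRCm38 were used. Percent of gene under peaks was computed in Python 3.11.15 with numpy 2.4.6. Scaling divided each list by its total peak bp relative to the mean of the 4. limma 3.58.1 in R 4.3.3 was run on log2(percent + 1) with Benjamini-Hochberg adjustment and tested on simulated data. p-values of single quantities are exact permutations over the 3 divisions of the 4 lists. Alternatives covered scaling, peak number and width, gene length, promoters, minimum difference and omission of each list.

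The members and gene lists were chosen with earlier results of these data known. Genes are named if they are called alike before and after scaling and have the 8 largest differences per direction (6 among those of 50 kb or more), if they have up to 4 of the largest called differences per direction in a list, if the study named them for 5-hmC or they mark a cell type, or if they have one of the 10 smallest limma p per direction. Symbols that end in Rik or are Gm plus a number are left out of the first part. Input, sh-control and other samples without a peak list here were not analysed.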

Additional observations from a re-analysis of the deposited data

How the results depend on the processing

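The number of genes higher in neonatal CMCs (3843) was within 1.5 times under 12 of 16 alternatives. It was 2223 after scaling to the average gene, 2511 with all peaks at their median width and 2421 by peak centres per kb. Leaving out 1 list gave 5479 to 6954, the highest without neonatal replicate 1 (6954). The number lower (943) was 2169 after scaling to total peak bp, 2994 after scaling to the average gene and 628 with a difference of at least 2 points. It was 2728 without E14.5 replicate 1, 2704 without E14.5 replicate 2, 1719 without neonatal replicate 1 and 3074 without neonatal replicate 2, since 1 list against 2 is an easier criterion. The limma counts of 0 became 27 higher and 14 lower without the filter on low values and stayed 0 in the other 9 settings. The mean difference of 1.98 points was 0.925 after scaling to total peak bp. More genes were higher than lower in 24 of 27 lists, in 15 after scaling to total peak bp and, in an alternative chosen after seeing the data, in 13 after scaling to the average gene.

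Replicate numbers did not mark a shared litter or day in the labels, and with 2 pairs the correlation of deviations across genes (0.15) decides nothing. With the replicate number as a block, that is the same sign within both numbers, 5039 genes were higher and 1778 lower, limma again called 0, and 24 lists had more higher than lower genes.

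With all peaks at their median width the difference turned in 12 named genes, to -3.08 points for *Cpt1b*, -1.33 for *Rbpms*, -8.18 for *Myl3*, -4.51 for *Pnpla2*, -4.16 for *Acot2*, -2.31 for *Jag2*, -3.39 for *Adcy6*, -4.902 for *Eif4ebp1*, -1.63 for *Vegfa*, -1.77 for *Gabbr1*, -9.55 for *Ckm* and -0.432 for *Rac1*. *Myh11* turned to -0.477 points after scaling to total peak bp and to -0.376 with equal numbers of peaks. The lists hold no read numbers, so depth could not be set equal, and a more deeply sequenced library can yield more and wider peaks.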

Other observations

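The genes with the smallest limma p on the lower side were short genes that were covered in both E14.5 lists and listed at 0 in both neonatal lists. *Eif5a*, which encodes a translation factor, carried 1 peak of median width in each E14.5 list (9.55% and 9.55% of the gene) and none in either neonatal list. The DNA repair gene *Xrcc3*, which overlaps *Klc1*, had 9.38% and 9.86% against 0 in both neonatal lists, and *Eif2b4*, a subunit of a translation initiation factor, 8.98% and 8.98% against 0. In the adult lists these 3 genes stood at 9.55% and 19.1%, 10.6% and 29.9% and 8.98% and 14.3%.

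On the higher side, the 10 genes with the smallest p were, apart from *Tob2*, listed at 0 in both E14.5 lists. *Cirbp*, a cold-inducible RNA-binding protein, was at 0 in both E14.5 lists and at 32.2% and 26.4% in the neonatal ones. Its later values were 42.7% and 33.1% for adult CMCs and 26.3% and 25.1% for TAC CMCs. *Tmem14c*, a mitochondrial protein of heme synthesis, was at 0 and then at 30.2% and 27.7%, and stood at 7.91% and 13.9% in the adult lists. *Rnps1*, a splicing factor, was at 0 and then at 17.2% and 19.1%.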
